A study of Mus musculus with 2 samples.

Results

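The genes described here encode the ligands, receptors, SMAD proteins, ID proteins, antagonists and latent TGF-beta binding proteins of the TGF-beta and bone morphogenetic protein (BMP) pathways, 46 genes chosen by name for their roles in these pathways. Of these, 45 were read on the arrays by 97 probe sets, out of 18193 genes in all, and Gdf6 was not analysed here. A probe set was used where it was annotated to a single gene, and where a gene had several, the one brightest on average across the arrays stood for it.

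Transcripts were measured in fibroblasts cultured from mouse embryos (MEFs) of the p27delta51 genotype and of wild type. Cells of both genotypes had been grown in medium with 10% fetal bovine serum and were then kept without serum for 72 h, so both arrays show quiescent cells. Each genotype was represented by 1 array of biotin-labelled RNA, and the labels do not give how many embryos or cultures stood behind an array. The protein p27, product of Cdkn1b, inhibits cyclin-dependent kinases, and the shortened p27delta51 protein is known to lack its amino-terminal, kinase-inhibiting end. With 1 array per genotype no difference has a replicate check and no test was made, so every value below describes these 2 arrays.

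Ligands of the TGF-beta family are secreted proteins that bring together type I and type II receptor kinases at the cell surface. The type I receptor phosphorylates SMAD proteins, mainly SMAD2 and SMAD3 for TGF-beta and activin and SMAD1, SMAD5 and SMAD9 for BMPs, and these enter the nucleus with SMAD4. In fibroblasts TGF-beta is known as an inducer of matrix and contractile genes. BMPs are known as inducers of the ID genes, and both branches induce the inhibitory SMADs that feed back on the receptors. TGF-beta is released in a latent form held in the matrix by latent TGF-beta binding proteins, while secreted antagonists such as noggin, chordin and follistatin keep BMPs or activins from their receptors.

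The 2 arrays had median signals of 22.2 for p27delta51 and 21.2 for wild type over 45101 probe sets, on the linear scale of the deposited table. A signal was taken as measurable when it lay above the array's control floor, the highest signal of 27 probe sets for bacterial transcripts, at 14.8 for p27delta51 and 11.8 for wild type. Probe sets of Cdkn1b itself went opposite ways, with 1.6 and 1016 in p27delta51 cells against 62.0 and 542 in wild type cells. Which of them lies in the deleted part was not established, so they do not check the genotype. The arrays also differed in sex-linked transcripts, with Xist at 876 in p27delta51 cells and 25.8 in wild type cells and the Y-linked Eif2s3y at 6.9 in p27delta51 cells and 424 in wild type cells. All 10 fibroblast markers had a mean signal above the brightness limit used below, among them Col1a1 at 7275 in p27delta51 cells and 7569 in wild type cells and Vim at 11278 in p27delta51 cells and 9670 in wild type cells. Thy1 and Lum, also on that list, were at 18.6 and 14.8 in p27delta51 cells against 279 and 107 in wild type cells. Above that limit lay 0 of 5 endothelial, 1 of 5 muscle and 3 of 6 macrophage markers. Pecam1, Cdh5, Myod1, Myog and Ptprc of these lists were below the floor on both arrays. The macrophage markers Csf1r and Cd14 were above it, at 56.5 and 86.9 in p27delta51 cells against 65 and 32.2 in wild type cells. Of the markers read, 5 of 6 chondrocyte, 4 of 4 neural, 3 of 4 adipocyte, 2 of 6 epithelial and 1 of 3 osteoblast markers also lay above the limit. The cultures were thus not shown to be free of other cell types.

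Pathway genes were more often 2-fold apart than genes at large, and most of those were lower in p27delta51. Of the 45 genes, 38 had a mean signal at or above 22.2, the median over all probe sets, and only these were compared. Because the limit is on the mean, a gene could pass through its brighter array alone, as did Bmp2, Id4 and Nog among others. Such a gene is then likely to count as 2-fold apart. The same limit was applied to all genes, so the shares over all genes hold such genes as well. The 4 genes Bmp6, Bmp7, Gdf5 and Acvrl1 were at or below the floor on both arrays, and Bmp5, Bmpr1b and Smad9 lay below the brightness limit with 9.0, 12.4 and 11.3 in p27delta51 cells against 15, 19.5 and 18.4 in wild type cells. The last gene above the limit was Acvr2b, with a mean signal of 24.2 over both arrays, and the first below it was Bmpr1b, with 15.9. Of the 38 genes, 13 (34.2%) were at least 2-fold lower in p27delta51, against 8.77% of all 11159 genes above the limit, and 7 (18.4%) were at least 2-fold higher, against 10.8% of all genes. The other 18 lay between. The median log2 difference, p27delta51 minus wild type, was -0.36 for the 38 genes and 0.079 for all genes, with quartiles of -0.33 and 0.51 for all genes. In bulk RNA a lower signal can come from fewer cells of a type or from less RNA per cell, and these cannot be told apart.

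**Figure D1:**
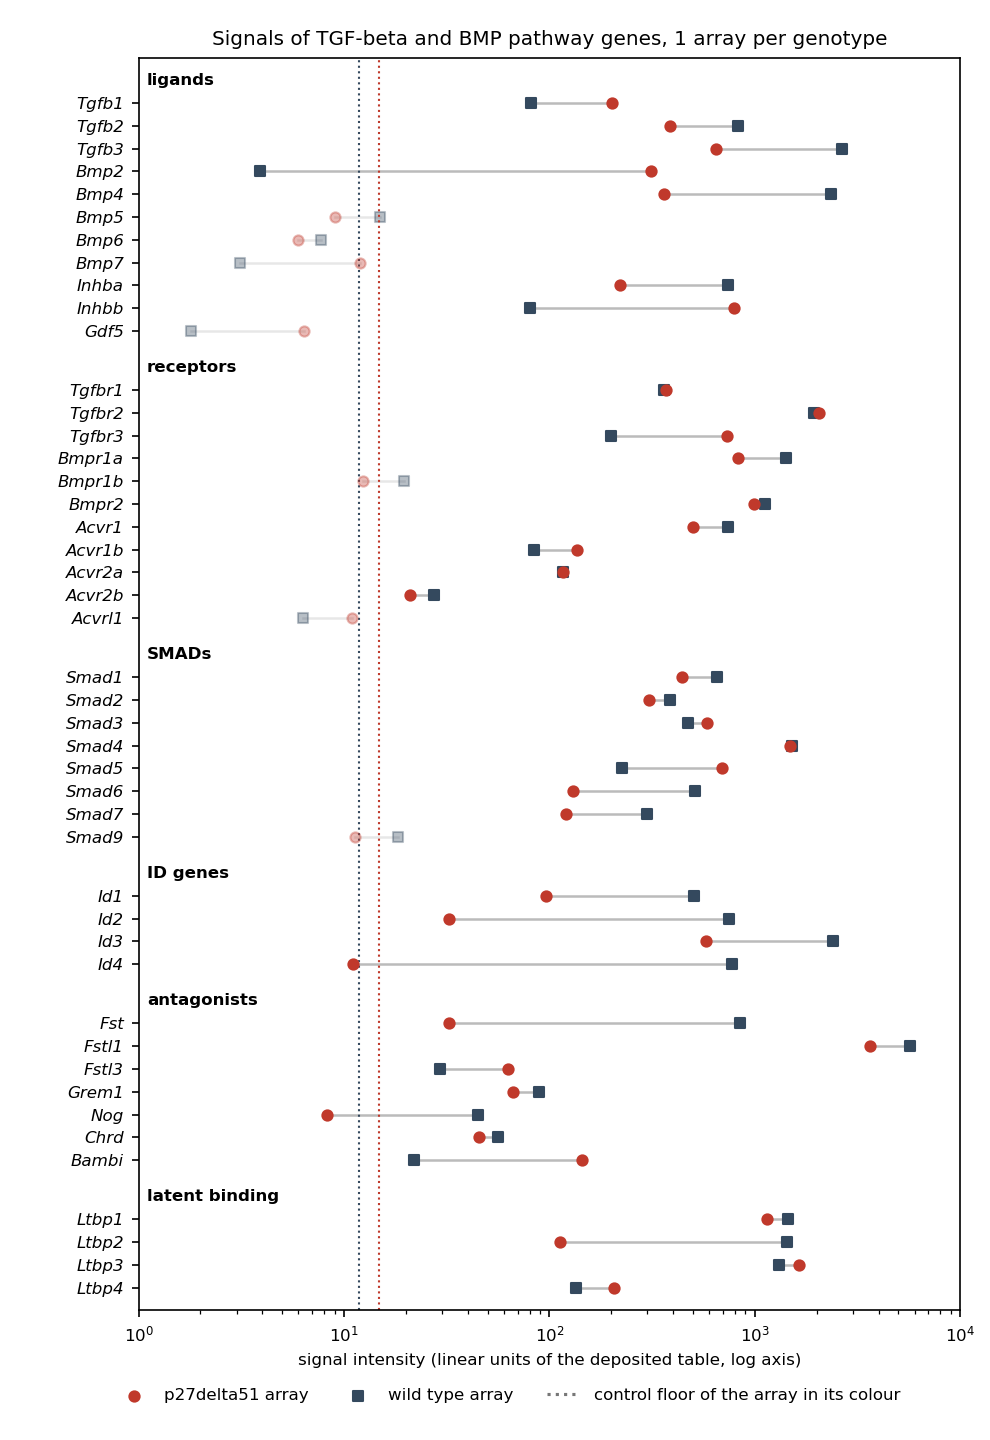
Signal intensity of the 45 pathway genes on the p27delta51 array (red circles) and the wild type array (dark squares), on a log axis, grouped by role. Dotted lines mark each array's control floor and pale symbols mark genes below the brightness limit. For all 4 ID genes the p27delta51 symbol lies to the left of the wild type symbol, while Tgfbr1, Tgfbr2, Acvr2a and Smad4 have nearly the same signal on both arrays.

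The 7 ligand genes above the limit, of 11 read, were all at least 2-fold apart, 4 lower and 3 higher in p27delta51. Of all genes above the limit, 8.77% were lower and 10.8% higher by as much. The ligand genes went opposite ways within each ligand family. Among the 3 TGF-beta genes, Tgfb1 gave 200.7 in p27delta51 cells and 81.5 in wild type cells, 2.46-fold higher. Tgfb2 gave 384 in p27delta51 cells and 832 in wild type cells, 2.17-fold lower, and Tgfb3 gave 649 in p27delta51 cells and 2644 in wild type cells, 4.08-fold lower. The 3 genes encode separate isoforms that share the same receptors, and their transcripts did not differ in a common direction. The Tgfb2 difference was read by 4 probe sets, with log2 differences between -1.35 and -0.74, all lower. A second, dim probe set of Tgfb1 gave 13.9 in p27delta51 cells and 22.5 in wild type cells, on the other side of its main probe set.

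The BMP ligand genes showed the widest contrast among the ligands. Bmp2 gave 313 in p27delta51 cells and 3.9 in wild type cells, where it was below the floor, so it was at least 26.5-fold higher. Bmp4 gave 361 in p27delta51 cells and 2358 in wild type cells, 6.54-fold lower. BMP2 and BMP4 are closely related proteins that bind the same receptors, and each was read by 1 probe set. Bmp4 was bright on both arrays, whereas Bmp2 was measurable in p27delta51 cells alone.

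The activin genes were also split. Inhba and Inhbb encode the beta A and beta B chains that pair into activins, or with the alpha chain into inhibins. Inhbb gave 792 in p27delta51 cells and 80.8 in wild type cells, 9.80-fold higher, and its second probe set gave 117 in p27delta51 cells and 16.1 in wild type cells. Inhba gave 220 in p27delta51 cells and 736 in wild type cells, 3.35-fold lower. The chain genes thus lay on opposite sides, and both probe sets of Inhbb were higher. The second was near background in wild type and carried a no-change call in the authors' deposited table.

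Of 9 receptor genes above the limit, 1 was at least 2-fold higher in p27delta51, 0 were at least 2-fold lower and 8 lay between, with a median log2 difference of -0.011. With 8.77% of all genes lower and 10.8% higher by as much, these counts over 9 genes do not set receptors apart from genes at large. The gene past 2-fold was Tgfbr3, which encodes betaglycan, a co-receptor that presents TGF-beta to the kinase receptors and binds inhibin, at 732 in p27delta51 cells and 199 in wild type cells, 3.67-fold higher. Its second probe set gave 74.5 in p27delta51 cells and 19.5 in wild type cells, near background, and carried a no-change call in the authors' deposited table. The signalling receptors of TGF-beta itself were close to equal, with Tgfbr1 at 368 in p27delta51 cells and 361 in wild type cells and Tgfbr2 at 2046 in p27delta51 cells and 1931 in wild type cells. The 3 bright probe sets of Tgfbr1 spread from -0.76 to 0.52 on the log2 scale, so its direction differed between probe sets.

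Of the BMP receptor genes, Bmpr1a, a type I receptor, gave 824 in p27delta51 cells and 1418 in wild type cells, 1.72-fold lower. All 6 of its probe sets were on the lower side, with log2 differences from -0.89 to -0.010. The probe set at -0.010 was nearly equal and near background, at 28.3 in p27delta51 cells and 28.5 in wild type cells. It carried a no-change call in the authors' deposited table. Another, at 22 in p27delta51 cells and 35.5 in wild type cells, was also near background. The type II receptor Bmpr2 gave 994 in p27delta51 cells and 1124 in wild type cells. Acvr1, a type I receptor for BMPs, gave 499.8 in p27delta51 cells and 740.3 in wild type cells, 1.48-fold lower. The activin receptors lay within 2-fold as well, with Acvr1b at 136 in p27delta51 cells and 84.2 in wild type cells, Acvr2a at 116 in p27delta51 cells and 117 in wild type cells, and Acvr2b, near background, at 21.0 in p27delta51 cells and 27.3 in wild type cells. Below the brightness limit, Bmpr1b had a further probe set at 0.6 in p27delta51 cells and 29.3 in wild type cells, which carried a decrease call in the authors' deposited table, while its other 2 probe sets carried no-change calls.

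Both inhibitory SMAD genes were at least 2-fold lower in p27delta51, against 8.77% of all genes. Smad6, which acts chiefly against BMP signals, gave 130.1 in p27delta51 cells and 512 in wild type cells, 3.94-fold lower. Smad7, which acts against both branches, gave 121 in p27delta51 cells and 298 in wild type cells, 2.48-fold lower, and its second probe set gave 42.2 in p27delta51 cells and 94.3 in wild type cells.

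Of the 5 signal-carrying SMAD genes above the limit, 1 was at least 2-fold higher, 0 were at least 2-fold lower and 4 lay between, against 10.8% of all genes higher and 8.77% lower, so 0 of 5 lower is no contrast with genes at large. Smad5, a BMP effector, gave 692 in p27delta51 cells and 227 in wild type cells, 3.05-fold higher. Its 3 probe sets were all higher, from 0.54 to 1.61 on the log2 scale, so the size differed by probe set more than the direction. The probe set at 0.54 carried a no-change call in the authors' deposited table. Smad1, the other BMP effector above the limit, gave 440.0 in p27delta51 cells and 655 in wild type cells, 1.49-fold lower, and all 3 of its probe sets were lower. These BMP effector genes thus lay on opposite sides. The TGF-beta effectors were nearer to equal, with Smad3 at 584 in p27delta51 cells and 471 in wild type cells and Smad2 at 304 in p27delta51 cells and 388 in wild type cells, where a second Smad2 probe set went the other way at 113 in p27delta51 cells and 96.4 in wild type cells. Smad4, the partner common to both branches, gave 1489 in p27delta51 cells and 1521 in wild type cells.

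All 4 ID genes were lower in p27delta51, each at least 4-fold, which no other role group showed. ID proteins bind basic helix-loop-helix transcription factors and keep them from DNA. Id1 gave 96.6 in p27delta51 cells and 504 in wild type cells, 5.22-fold lower, and Id3 gave 578 in p27delta51 cells and 2394 in wild type cells, 4.14-fold lower. Id2 gave 32.4 in p27delta51 cells, near background, and 747 in wild type cells, 23.0-fold lower. Id4 gave 11.1 in p27delta51 cells, below the floor, and 776 in wild type cells, and so was at least 52.4-fold lower. The group thus held genes that stayed bright in p27delta51 cells, Id3 above all, and a gene that was not measurable there. The median log2 difference of the 4 genes was -3.46, against 0.079 for all genes, of which 8.77% were at least 2-fold lower.

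Further probe sets of the ID genes read the same way. The second Id2 probe set gave 4.2 in p27delta51 cells and 245 in wild type cells, and another, below the brightness limit, gave 0.5 in p27delta51 cells and 17.9 in wild type cells. The other Id4 probe sets gave 6.1 and 14.4 in p27delta51 cells against 425 and 304 in wild type cells. All 3 probe sets of Id4 were below the floor in p27delta51 and bright in wild type. Id1 and Id3 were each read by 1 probe set.

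The promoter windows of Id2, Id3, Id4 and Smad6 are shown because these BMP-inducible genes were all at least 2-fold lower in p27delta51. Id1 and Smad7 were also at least 2-fold lower, but no promoter window was available for them. The windows are from RefSeq (GRCm38.p6), from 250 bases before to 50 bases after the gene's start, and 32 of the 46 pathway genes had at least 1 window there. They lie at chr12:25096043-25096342 on the minus strand for Id2, chr4:136143572-136143871 on the plus strand for Id3, chr13:48260866-48261165 on the plus strand for Id4 and chr9:64022010-64022309 on the minus strand for Smad6. Capitals mark exact matches on either strand to GGCGCC, a GC-rich element known from BMP-responsive promoters, to CAGAC, a SMAD-binding element (GTCTG on the other strand), and to GTCTAGAC, the palindrome preferred by SMAD3 and SMAD4 in vitro.
Id2: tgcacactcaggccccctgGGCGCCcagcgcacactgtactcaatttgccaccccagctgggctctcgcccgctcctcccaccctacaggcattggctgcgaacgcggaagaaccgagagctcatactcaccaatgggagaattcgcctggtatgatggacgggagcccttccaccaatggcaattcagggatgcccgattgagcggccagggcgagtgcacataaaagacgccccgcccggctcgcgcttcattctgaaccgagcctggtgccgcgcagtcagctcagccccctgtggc
Id3: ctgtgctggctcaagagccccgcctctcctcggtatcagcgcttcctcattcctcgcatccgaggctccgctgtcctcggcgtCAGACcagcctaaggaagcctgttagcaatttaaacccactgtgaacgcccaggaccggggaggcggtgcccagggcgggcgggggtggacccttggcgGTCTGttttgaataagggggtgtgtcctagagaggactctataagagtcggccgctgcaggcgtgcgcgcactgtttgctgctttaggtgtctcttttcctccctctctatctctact
Id4: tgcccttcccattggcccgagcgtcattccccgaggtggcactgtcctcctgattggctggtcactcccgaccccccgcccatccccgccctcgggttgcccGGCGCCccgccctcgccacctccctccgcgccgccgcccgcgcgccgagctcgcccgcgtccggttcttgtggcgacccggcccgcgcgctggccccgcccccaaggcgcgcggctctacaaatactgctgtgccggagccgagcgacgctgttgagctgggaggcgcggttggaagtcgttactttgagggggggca
Smad6: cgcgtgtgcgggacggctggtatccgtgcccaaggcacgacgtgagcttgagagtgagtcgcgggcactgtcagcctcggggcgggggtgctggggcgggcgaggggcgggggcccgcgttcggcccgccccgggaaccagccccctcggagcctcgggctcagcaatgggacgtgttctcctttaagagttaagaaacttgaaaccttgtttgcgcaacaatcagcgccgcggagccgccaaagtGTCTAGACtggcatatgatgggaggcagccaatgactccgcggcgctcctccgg

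Each of the 4 windows held a match to 1 of the 3 motifs, and no motif was common to all of them. GGCGCC occurred once in the Id2 window and once in the Id4 window, CAGAC or its complement 2 times in the Id3 window, and GTCTAGAC once in the Smad6 window, without overlap between motifs. Base composition was not matched. Over all 32851 windows of the RefSeq table, GGCGCC was found in 11.9%, CAGAC in 49.6% and GTCTAGAC in 0.213%. Among the 40 windows of pathway genes, GGCGCC was found in 13 (32.5%), CAGAC in 18 (45%) and GTCTAGAC in 1 (2.50%). A match is a string of letters and not a measured binding site. GGCGCC also lay in windows of genes that were higher in p27delta51 or within 2-fold, such as Smad5, Tgfbr1 and Bmpr1a.

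Genes for antagonists and binding proteins went both ways, with 2 of 7 at least 2-fold lower in p27delta51, 2 at least 2-fold higher and 3 between. Of all genes above the limit, 8.77% were lower and 10.8% higher by as much, and 7 genes are few to compare. Follistatin, encoded by Fst, binds activins and holds them from their receptors. Fst gave 32.6 in p27delta51 cells, near background, and 850 in wild type cells, 26.1-fold lower, and its second probe set gave 12.7 in p27delta51 cells and 482 in wild type cells. Its relative Fstl3 gave 62.9 in p27delta51 cells and 29.4 in wild type cells, 2.14-fold higher with a wild type signal near background. Fstl1, a more distant relative that was bright on both arrays, gave 3636 in p27delta51 cells and 5675 in wild type cells, 1.56-fold lower. The 3 follistatin family genes thus did not share a direction, and Fst was the furthest apart of them.

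Among genes of BMP antagonists, Nog, Chrd and Grem1 were lower in p27delta51, Chrd and Grem1 within 2-fold, while Bambi was higher. Nog, for noggin, gave 8.3 in p27delta51 cells, below the floor, and 44.8 in wild type cells, and so was at least 3.03-fold lower. Chrd, for chordin, gave 45.5 in p27delta51 cells and 55.9 in wild type cells. Grem1, for gremlin, a secreted BMP antagonist, gave 66.5 in p27delta51 cells and 89.4 in wild type cells. Bambi, which encodes a membrane decoy that resembles a type I receptor without a kinase, gave 144.0 in p27delta51 cells and 21.9 in wild type cells, near background, 6.58-fold higher. Among the antagonist genes, Bambi and Fstl3 were thus the 2 at least 2-fold higher in p27delta51, each with a wild type signal near background.

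Of the 4 latent TGF-beta binding protein genes, Ltbp2 alone was at least 2-fold apart. With 8.77% of all genes lower and 10.8% higher by as much, this count over 4 genes does not set the group apart. Ltbp2 gave 113 in p27delta51 cells and 1433 in wild type cells, 12.7-fold lower. LTBP2 differs from its relatives in that it is known to bind microfibrils but not latent TGF-beta. Ltbp1, Ltbp3 and Ltbp4, whose proteins do hold latent TGF-beta, gave 1143, 1632 and 207 in p27delta51 cells against 1453, 1315 and 135 in wild type cells. Ltbp1 was slightly lower and Ltbp4 1.54-fold higher in p27delta51, and the 4 probe sets of Ltbp3 lay on both sides.

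**Figure D2:**
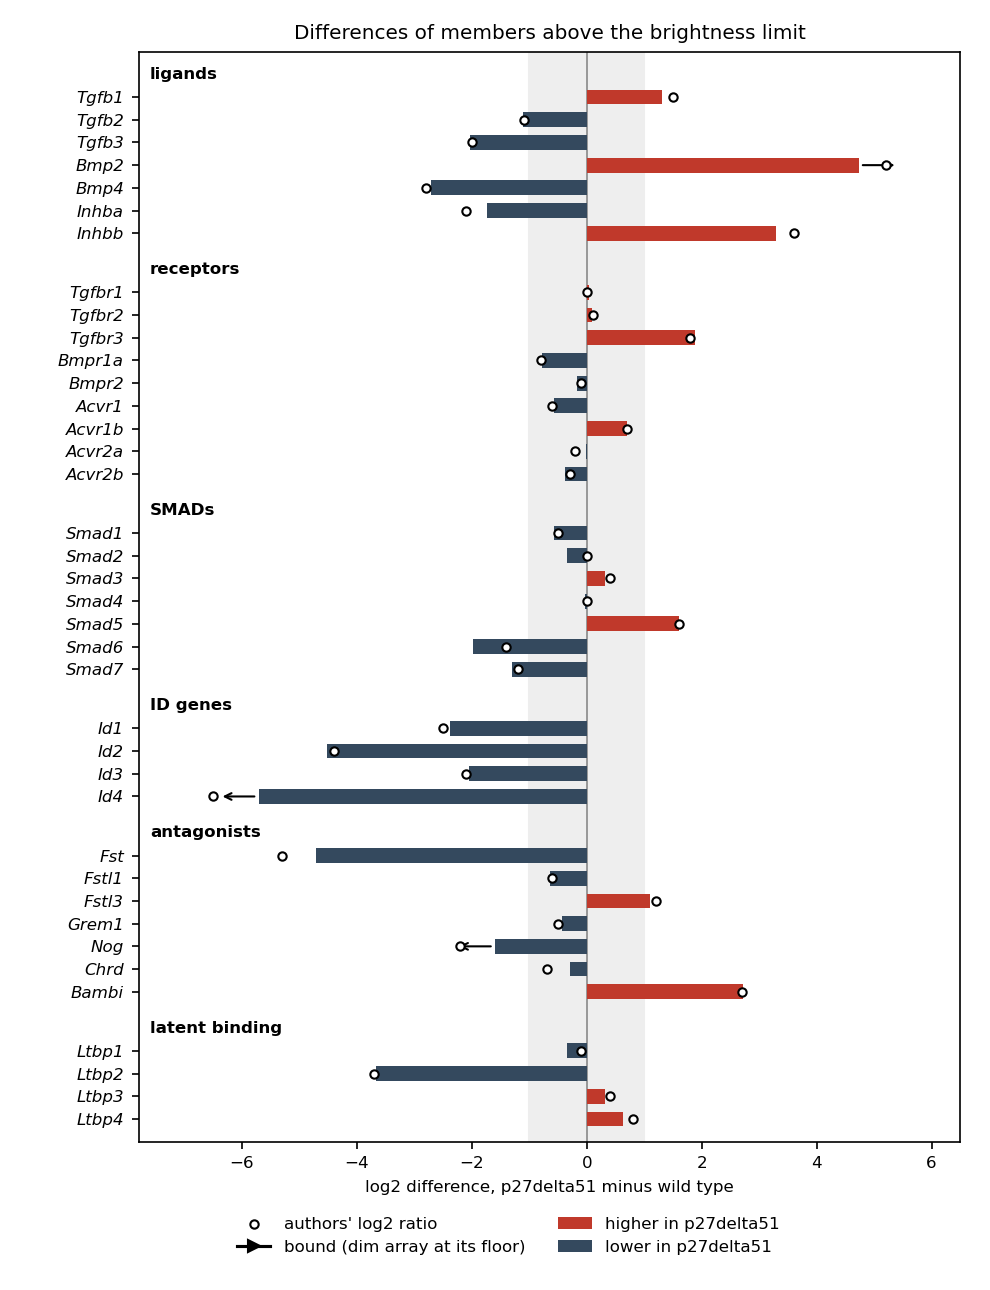
Log2 difference, p27delta51 minus wild type, of the 38 pathway genes above the brightness limit (bars), with the authors' deposited log2 ratio of the same probe set (open circles). Grey shading marks the range within 2-fold, and arrows mark Bmp2, Id4 and Nog, whose dimmer array was at or below its floor. All ligand and ID bars leave the shaded range, and 8 of 9 receptor bars stay within it.

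The authors had compared the same 2 arrays probe set by probe set, so their calls are no independent measurement. In the authors' deposited table, 19 of the 38 genes carried a decrease or marginal decrease call, against 20.6% of all genes above the limit, and 11 an increase or marginal increase call, against 27.3% of all genes. All 13 genes at least 2-fold lower carried a decrease call there and all 7 genes at least 2-fold higher an increase call. The authors' log2 ratio had the same sign as the difference computed here for all 35 genes where it was not 0. For Smad6 the authors' ratio was -1.4, smaller than the -1.98 of the signals, and for Fst it was -5.3 against -4.70.

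Several probe sets of a gene on the same arrays are the repeat measurement this design offers, and they measure technical spread alone. Of the 38 genes, 21 had at least 2 probe sets above the limit, and in 17 of these all lay on the same side. The other 4 were Tgfbr1, Tgfbr2, Smad2 and Ltbp3, all within 2-fold by their main probe set. All 8 genes of this kind that were at least 2-fold apart had their probe sets on 1 side. Of the 20 genes at least 2-fold apart, 10 were read by a single probe set, among them Bmp2, Bmp4, Id1, Id3 and Bambi. The median SD between bright probe sets of a gene was 0.23 on the log2 scale over 5316 genes.

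**Figure D3:**
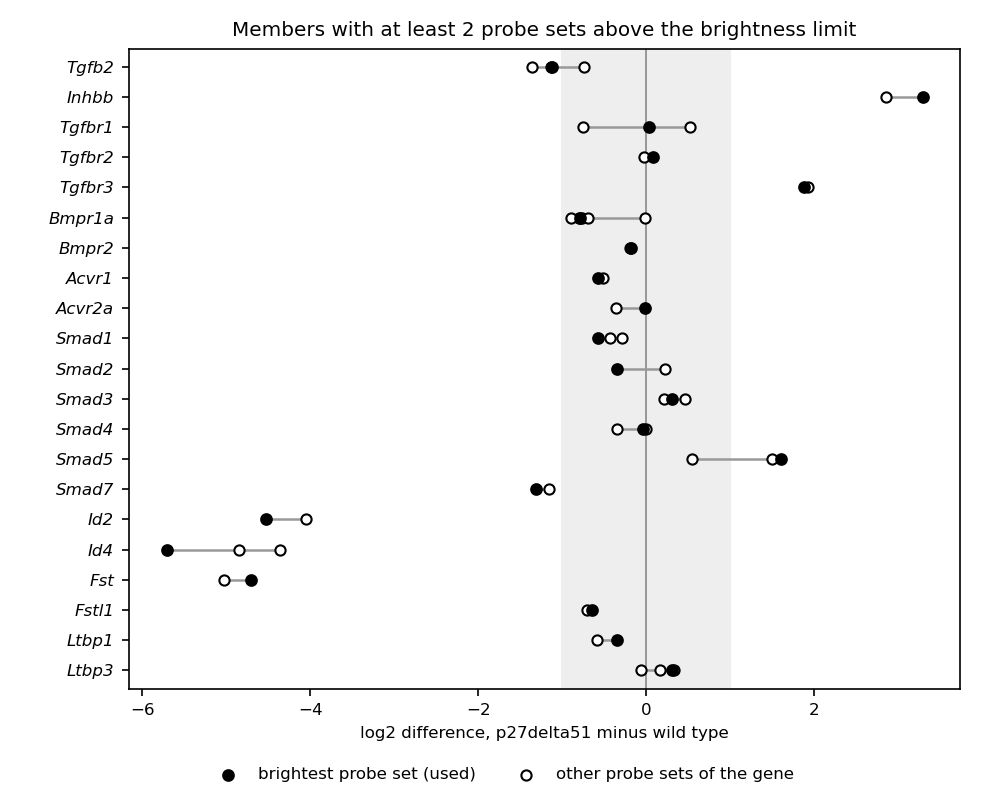
Log2 difference, p27delta51 minus wild type, of each probe set above the brightness limit for the 21 pathway genes with at least 2 of them. Filled circles mark the probe set used, open circles the others, and grey shading the range within 2-fold. Id2, Id4 and Fst lie below -4 in every probe set, and those of Tgfbr1 span 0.

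Other genes of the pathways were read from lists that held none of the 46 genes, though several of their genes, Col1a1 and Sox9 among them, are also cell type markers. Their counts are set against the shares of all genes past 2-fold, 8.77% on the lower side and 10.8% on the higher side in p27delta51. Among intracellular regulators, which include the SMAD ubiquitin ligases Smurf1 and Smurf2 and the repressors Ski and Skil, 1 of 29 was at least 2-fold lower, 0 were at least 2-fold higher and the median log2 difference was -0.041. The 1 gene was Tgif2, a repressor that binds SMAD2 and SMAD3, at 36.1 in p27delta51 cells and 141 in wild type cells, whereas its relative Tgif1 gave 772 in p27delta51 cells and 417 in wild type cells. Trim33, for a ubiquitin ligase that acts on SMAD4, gave 419 in p27delta51 cells and 263 in wild type cells, and Nedd4l, also a ubiquitin ligase gene, gave 225 in p27delta51 cells and 319 in wild type cells. The other 28 of the 29 genes lay within 2-fold, as did 8980 of all 11159 genes.

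Of 16 genes for latency and activation, which control ligands outside the cell, 4 (25%) were at least 2-fold lower in p27delta51, above the share of all genes, and 1 (6.25%) was at least 2-fold higher, below it. Tgm2, a cross-linking enzyme of the matrix, gave 103.5 in p27delta51 cells and 2332 in wild type cells, and Fbn2, a microfibril protein gene, gave 32 in p27delta51 cells and 204 in wild type cells. Itgb8, whose integrin is known to activate latent TGF-beta, gave 268 in p27delta51 cells and 83.4 in wild type cells, 3.22-fold higher, and Itgav, which encodes its partner chain, gave 2269 in p27delta51 cells and 1629 in wild type cells. Of 11 other extracellular regulators, 4 (36.4%) were lower by 2-fold or more and 0 higher by as much. Dcn, for decorin, a proteoglycan that binds TGF-beta, gave 21.3 in p27delta51 cells and 2817 in wild type cells, and Bmper, whose product binds BMPs, gave 15.1 in p27delta51 cells and 156 in wild type cells. Fbn2, Dcn and Bmper were near background in p27delta51. On the higher side of the last list, within 2-fold, the secreted antagonist gene Dand5 gave 63.4 in p27delta51 cells and 37.7 in wild type cells, and Chrdl1 gave 40.7 in p27delta51 cells and 27.6 in wild type cells.

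Further receptors and ligands were mostly dim. Of 5 other receptor and co-receptor genes above the limit, Eng, for the co-receptor endoglin, was 5.29-fold lower at 51.2 in p27delta51 cells and 271 in wild type cells, and Ror2, a Wnt receptor gene known to act with a BMP receptor, was 3.40-fold higher at 148 in p27delta51 cells and 43.5 in wild type cells. Neo1, for neogenin, gave 478 in p27delta51 cells and 337 in wild type cells. All 4 other ligand genes above the limit lay within 2-fold, with Inha, for the inhibin alpha chain, at 66.6 in p27delta51 cells and 40.3 in wild type cells, Gdf9 at 26.8 in p27delta51 cells and 19.1 in wild type cells, and Gdf11 at 22.6 in p27delta51 cells and 31.7 in wild type cells. The additional ligand genes thus added no gene as far apart as Bmp2, Bmp4 or Inhbb.

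Known targets of the 2 branches were read as well. Of 23 genes listed as TGF-beta targets, 8 (34.8%) were at least 2-fold lower in p27delta51, against 8.77% of all genes, and 5 (21.7%) at least 2-fold higher, against 10.8%, with a median log2 difference of -0.86 against 0.079 for all genes. Cnn1, a smooth muscle calponin gene, gave 35.1 in p27delta51 cells and 1158 in wild type cells, and Cdkn2b, a kinase inhibitor gene, gave 3.2 in p27delta51 cells and 439 in wild type cells. Tgfbi, named for its induction by TGF-beta, went the other way with 4270.5 in p27delta51 cells and 668 in wild type cells, 6.39-fold higher, and Angptl4 gave 72.2 in p27delta51 cells and 18.8 in wild type cells. Targets of TGF-beta therefore lay on both sides.

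Of 10 genes listed as BMP targets beside the ID genes and inhibitory SMADs, 3 were at least 2-fold lower in p27delta51, against 8.77% of all genes, and 2 at least 2-fold higher, against 10.8%, with a median log2 difference of 0.0042 against 0.079 for all genes. Atoh8 gave 3.0 in p27delta51 cells and 157 in wild type cells, and so was at least 10.6-fold lower, and Sox9, a cartilage regulator that is also on the chondrocyte list below, gave 33.6 in p27delta51 cells and 314 in wild type cells. Msx2 and Dlx5, homeobox genes of the limb and skeleton, gave 37.2 and 151 in p27delta51 cells against 13.4 and 74.2 in wild type cells. Msx2 was near background in wild type, and its log2 ratio in the authors' deposited table was 0.9, inside 2-fold. The lower signals of the ID genes were thus not shared by all listed BMP targets.

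**Figure D4:**
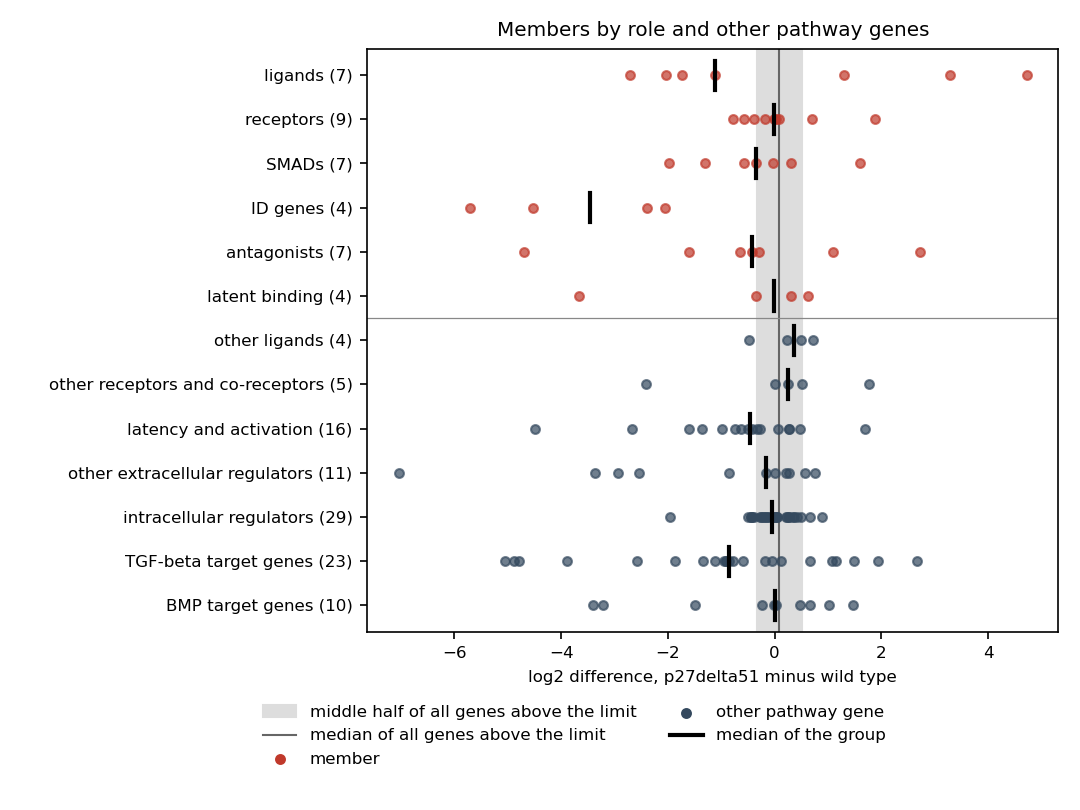
Log2 difference, p27delta51 minus wild type, of pathway genes above the brightness limit by role (red, upper rows) and of other pathway genes by list (dark, lower rows), with the number of genes in brackets and the group median as a black bar. The grey band spans the quartiles of all 11159 genes, -0.33 to 0.51. The ID median of -3.46 lies outside the band, and the receptor and intracellular regulator medians lie within it.

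Markers of cartilage cells, in which BMP genes and their antagonists are also active, were mostly lower in p27delta51. Of 6 chondrocyte markers, 5 were above the limit and 4 of them (Col2a1, Acan, Sox9 and Cnmd) were at least 2-fold lower in p27delta51. The summed signal over the 6 markers was 169 in p27delta51 cells and 4455 in wild type cells, while Matn1 was below the floor on both arrays and Comp gave 58.7 in p27delta51 cells and 32.3 in wild type cells. Most of the wild type sum came from Cnmd, at 0.8 in p27delta51 cells and 2668 in wild type cells. Of 4 neural markers above the limit, Map2 and Nes were at least 2-fold lower, with a summed signal over the 4 of 204 in p27delta51 cells and 1726 in wild type cells. The 6 epithelial markers, of which 2 were above the limit on opposite sides, had a summed signal of 131 in p27delta51 cells and 279 in wild type cells. The osteoblast, muscle and endothelial lists, with most markers read below the limit, summed to 51.5, 61.1 and 39.2 in p27delta51 cells. In wild type cells they summed to 71, 70 and 63.9. The fibroblast, adipocyte and macrophage lists had a higher summed signal in p27delta51, though not every marker on them was higher. The 4 adipocyte markers read had a summed signal of 247 in p27delta51 cells and 137 in wild type cells, with Cebpa at 158.5 in p27delta51 cells and 40.6 in wild type cells, Fabp4 at 82.0 in p27delta51 cells and 32.4 in wild type cells, and Pparg lower at 1.5 in p27delta51 cells and 48.9 in wild type cells. The 6 macrophage markers had a summed signal of 206.5 in p27delta51 cells and 165.5 in wild type cells, with Cd14 at 86.9 in p27delta51 cells and 32.2 in wild type cells. Of the 3 macrophage markers above the limit, Cd14 alone was higher. Csf1r and Lyz2 were lower, at 56.5 and 19.7 in p27delta51 cells against 65 and 30.4 in wild type cells. The part of other cell types in the differences of pathway genes was not tested, nor was that of the difference in sex-linked transcripts.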

How the data were processed

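The authors deposited 1 signal intensity per probe set and array on a linear scale, for 45101 probe sets of an Affymetrix array with biotin-labelled RNA per the labels' protocols. The submitters' processing notes name RMA and affy and no version. RMA output is on a log2 scale, but the deposited intensity values are linear, hold zeros and have a mean of 150.0 on both arrays after trimming 2% at each end, a form known from MAS5. Which program wrote them is not stated. A second table holds the authors' deposited log2 ratio, change call and change p-value, which compare 2 arrays, and that p-value was not used.

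Gene names came from GEO's platform annotation, with symbols updated by gene identifier to GRCm38.p6. A single symbol was held by 34945 probe sets and several by 932. No sample column was left out (0 unused). Signals at or below an array's control floor were raised to it before log2, and such folds are given as at least that size. A fold was called near background where the dimmer signal lay within 3 times of its floor. Compared genes had a mean signal of at least 22.2. The number of arrays limits the precision, and no SD or test was possible. All 46 genes, and from each further list up to 2 genes with the largest difference in each direction, were named. Genes, lists and settings were chosen with earlier results of these data known. Alternatives changed the floor, the brightness filter, the probe set rule, the scaling, the pseudocount and the fold threshold. The steps were tested on simulated data with large shifts in bright genes and little noise, which does not cover genes near the floor. Python 3.11.15, pandas 2.3.3, statsmodels 0.14.6 and matplotlib 3.10.9 were used.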

Additional observations from a re-analysis of the deposited data

How the results depend on the processing

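The 7 higher and 13 lower pathway genes and their median of -0.36 were recomputed under each alternative. The median lay between -0.57 with the upper-quartile filter and -0.31 with log2 of the signal plus 32. The 20 genes at least 2-fold apart kept their direction under all 11 alternatives in which they had a value. Over 216 recomputed values of these genes, 191 moved by less than the probe set SD of 0.23, 25 moved by more and 0 reversed. Part of this count was fixed beforehand. The brightness filters leave a gene's value unchanged, and median centring shifts every gene by 0.079, less than that SD. Leaving out the floor changes nothing for signals above it, nor does the probe set mean for genes with 1 probe set. All 20 stayed past 2-fold with no floor, no filter, another probe set ranking, no _x_at or _s_at probe sets, median centring, quantile normalization and the authors' ratio. The mean of all probe sets took Tgfb1 to 0.35, loess took Fstl3 inside 2-fold, and log2 of the signal plus 32 took Fstl3 and Nog to 0.63 and -0.93. The upper-quartile filter kept 29 of the 38 genes and left 4 higher and 12 lower, since Tgfb1, Fstl3, Nog and Bambi were removed. Over all genes it gave 559 higher and 461 lower, against 1200 and 979. The signal plus 32 gave 752 higher, a 1.5-fold threshold 2421 and 1773, and a 3-fold threshold 528 and 553. Of the pathway genes, 9 were higher and 15 lower at 1.5-fold, and 5 higher and 11 lower at 3-fold. Signals near the floor limit the folds of Bmp2, Id2, Id4, Fst, Nog, Fstl3 and Bambi. No paired analysis was possible because each genotype has 1 array.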

Other observations

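ID proteins act by binding E proteins and other basic helix-loop-helix factors, so the genes of 8 such factors were read after the ID values were known. Of 6 above the brightness limit, 3 were at least 2-fold higher in p27delta51, 0 were at least 2-fold lower and all 6 had a positive difference, with a median log2 difference of 0.72. Of all 11159 genes above the limit, 10.8% were at least 2-fold higher, 8.77% at least 2-fold lower and 6204 had a positive difference. Among the E proteins, the ubiquitous partners of ID proteins, Tcf4 gave 2503 in p27delta51 cells and 1161 in wild type cells, 2.16-fold higher, while Tcf3 gave 520.0 in p27delta51 cells and 441 in wild type cells and Tcf12 gave 1476 in p27delta51 cells and 1177 in wild type cells, with probe sets of Tcf12 on both sides. Twist2 and Scx, factors of dermal and tendon fibroblasts, gave 152 and 188 in p27delta51 cells against 29.8 and 79.4 in wild type cells, with Twist2 near background in wild type. Twist1 gave 324 in p27delta51 cells and 283 in wild type cells, and Tcf21 and Hand2 lay below the limit. These values have no replicate check and no test.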
